A study of Mus musculus with 9 samples.

Results

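B16F10 libraries that carry different numbers in their titles, Control 4 and Control 5, were compared gene by gene. B16F10 is a pigmented melanoma cell line from the mouse. Each number has 3 libraries: 1 of cells kept in medium alone, 1 of cells given interferon gamma (IFNγ) at 50 ng/mL, and 1 of cells given IFNγ at 50 ng/mL with FK866 at 50 nM, all for 6 h. The treatment protocol names IFNγ of mouse or human origin without saying which library received which. FK866 inhibits NAMPT, an enzyme that recycles nicotinamide into NAD. The comparison took the 3 columns of raw counts of Control 4 and the 3 of Control 5, 6 of the 9 libraries of the series, with the treatment as a block. The remaining 3 libraries, numbered Control 3 and treated in the same ways, enter where stated. The labels give no meaning for the numbers, and the word Control stands in the titles of treated libraries too. A clone, a passage, a day of culture and a batch of library preparation therefore cannot be told apart behind a number. With 1 library per number and treatment, Control 4 against Control 5 is a comparison of 1 set of cells with another, and its p-values measure only the spread of that difference over 3 treatments. No genotype difference between the numbers is given in the labels, and the cells are a transplantable tumour line without a host.

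A long-kept cell line does not stay uniform: clones differ in the number of copies of chromosome segments and in which genes are silent, and cultures differ in density and nutrient state. In melanoma cells the pigment enzymes, made under the factor MITF, are a classical trait that varies between sublines. IFNγ binds its receptor, activates Janus kinases and STAT factors, and induces interferon regulatory factors, antigen presentation genes, chemokines and antiviral genes.

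The 6 libraries held 15317003 to 18466972 counts. The series text names a 10x platform, but the table has 1 column per library and no cells, so each count was read as that of a bulk library, and whether it counts reads or unique molecules is not stated. The melanocytic markers Mitf, Sox10, Pax3, Pmel, Tyr, Tyrp1, Dct and Mlana summed to 15990 to 17720 CPM (a gene's count scaled to a common library size, here by library totals) in Control 4 and to 15460 to 18580 CPM in Control 5, so both sets carry the labelled cell type. Of 19 markers of leukocytes, fibroblasts, endothelial cells and keratinocytes, 8 had no count in any of the 6 libraries, including the leukocyte antigens Ptprc, Itgam and Adgre1, all 3 keratins, and Cdh5 and Kdr. The leukocyte markers summed to 10.2 to 12.5 CPM in Control 4 and to 3.72 to 4.96 CPM in Control 5, most of it Cd68, a lysosomal protein that is not confined to macrophages. The fibroblast markers summed to 12.0 to 19.4 CPM and to 8.29 to 12.9 CPM. Library composition also moved with the number. Mitochondrially encoded genes took 3.66% to 4.05% of the counts in Control 4 and 4.94% to 5.32% in Control 5, and the RNAs Rn7sk, Rpph1 and the ribosomal RNA gene CT010467.1 together took 2.94% to 3.57% and 4.11% to 4.48%. The part of these differences in the gene results below was not tested. Beyond these values, p-values rest on a fit with 2 residual degrees of freedom and a spread shared across genes.

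Many genes differed between Control 4 and Control 5, most of them by little. Of 14682 genes tested with edgeR's quasi-likelihood test, 5184 (35.3%) had an adjusted p below 0.05, here called, with 2872 (19.6%) higher and 2312 (15.7%) lower in Control 4. The median log2 difference of all tested genes was 0.03, and 86.2% of them lay within 1.5-fold. At least 2-fold differences were called for 393 genes (2.68%) higher and 194 (1.32%) lower in Control 4, of which 322 and 156 are protein-coding. Their sign was the same in media, IFNγ and IFNγ plus FK866 for 374 of the 393 and for 193 of the 194. These genes were called from the same 3 treatments, so such agreement largely follows from the selection and is not separate evidence. At least 4-fold differences were called for 76 and 46 genes. The libraries of both numbers did not overlap for 2078 of the genes called higher and 1855 of those called lower, and over all tested genes this held for 35.2%. The counts depend on the model. Without the treatment block 981 and 948 genes were called, with DESeq2 1576 and 1688, and with scaling by library totals 3792 and 1620, which moved the share of higher genes among those called from 55.4% to 70.1% and the median of all genes to 0.09. Leaving out the IFNγ pair gave 1734 and 1427 genes, and leaving out the IFNγ plus FK866 pair gave 1866 higher genes.

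**Figure D1:**
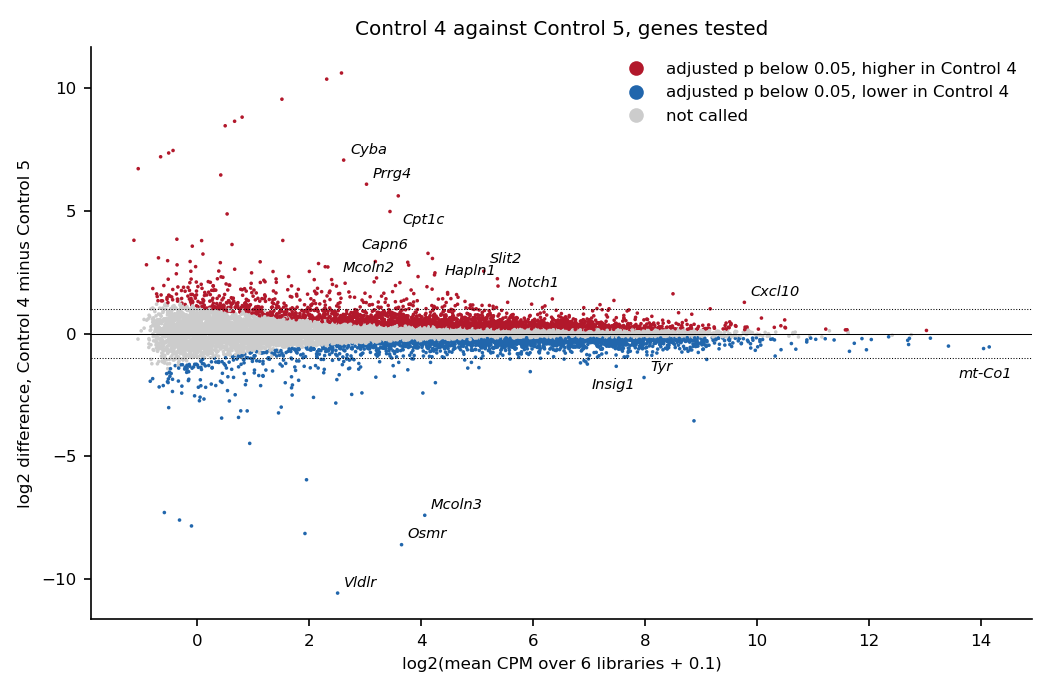
Each point is 1 of the 14682 tested genes, with its mean level over the 6 libraries (log2 of CPM plus 0.1) on the horizontal axis and the fitted log2 difference, Control 4 minus Control 5, on the vertical axis. Coloured points are called at an adjusted p below 0.05, dotted lines mark 2-fold, and the named genes at the top and bottom (Cyba, Prrg4 and Cpt1c, then Mcoln3, Osmr and Vldlr) stand far from the bulk.

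Over the 500 most variable genes of the 6 libraries, the axis of most variance (73.4%) set media apart from the IFNγ libraries, and the next (22.6%) set apart all Control 4 and all Control 5 libraries. Counts of Control 4 and Control 5 under the same treatment differed by a chi-square of 23.9 to 31.9 per degree of freedom, against 5.01 and 4.61 between IFNγ and IFNγ plus FK866 within Control 4 and within Control 5. Media and IFNγ within a number differed by 41.1 in Control 4 and 31.7 in Control 5. By this chi-square the difference between the numbers was several times that between the IFNγ libraries of 1 number, which differ in FK866. It was close to or below that between media and IFNγ. The chi-square uses raw counts and library totals, so abundant genes weigh most in it. Over the 500 most variable genes, the axis of the numbers held less variance (22.6%) than that of IFNγ (73.4%). Where Control 3 stood was mixed: among the genes at least 2-fold higher in Control 4 it lay between both for 217, above both for 89 and below both for 87, and among those at least 2-fold lower it lay between for 104, above for 28 and below for 62.

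Some genes were almost silent in 1 set of cells and expressed in the other. Vldlr, a receptor for lipoproteins and reelin, had no count in Control 4 and 12.8, 10.7 and 9.96 CPM (from here on scaled by TMM, a method that adjusts library totals for composition) in media, IFNγ and IFNγ plus FK866 of Control 5. Against a floor of 3 counts over the 3 libraries it was 199.6-fold lower in Control 4, with a lower 95% bound for counting error of 161.8-fold. Osmr, the oncostatin M receptor subunit, had 0.054, 0.123 and 0 CPM in Control 4 and 11.2, 27.9 and 35.2 CPM in Control 5, 437-fold lower in Control 4 (95% interval for counting error 149 to 2122). In Control 5 it was higher with IFNγ than in media, and in Control 4 it stayed near 0 under every treatment. Mcoln3, an endolysosomal cation channel of the TRPML family, had 0.272, 0.308 and 0 CPM in Control 4 and 36.9, 34.6 and 27.6 CPM in Control 5 (log2 difference -7.41, standard error 0.23, edgeR adjusted p = 3.56e-16).

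Adcy2, an adenylyl cyclase, showed 0, 0 and 0.053 CPM in Control 4 against 7.91, 7.02 and 7.14 CPM, a ratio of 394 (interval 70.3 to 15610). Anpep, aminopeptidase N, showed 0, 0.123 and 0.212 CPM against 8.86, 6.50 and 6.88 CPM, a ratio of 66.2 (30.1 to 181.7). The libraries of both numbers lay far apart for each of these genes. Both were picked, with Zfp334, Rec114 and Gm5995 below, after their values were seen, by a rule of at most 9 counts over 3 libraries on 1 side and a mean of at least 5 CPM on the other.

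In the other direction, Cyba, the p22phox subunit of the superoxide-producing NADPH oxidases, had 13.5, 11.9 and 10.4 CPM in Control 4 and 0, 0.117 and 0.131 CPM in Control 5. With 639 counts against 4, the ratio was 146.7 (57.0 to 540.2). Rec114, a gene of meiotic recombination, had 9.53, 10.2 and 9.47 CPM against no count, 159-fold at the floor of 3 counts (lower bound 128.8). The zinc finger gene Zfp334 had 5.56, 5.90 and 5.02 CPM against no count, 89.7-fold at that floor (lower bound 72.5). The processed pseudogene Gm5995 had 8.01, 11.6 and 15.5 CPM against no count, 193-fold at that floor (lower bound 156.2). Prrg4, a membrane protein with a Gla domain, had 11.6, 17.8 and 18.0 CPM against 0.059, 0.234 and 0.393 CPM. Cpt1c, a brain-type relative of the mitochondrial carnitine palmitoyltransferases, had 19.18, 24.97 and 18.40 CPM against 0.476, 0.468 and 1.05 CPM. Every library of Control 4 lay above every library of Control 5 for these 6 genes.

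Control 3 matched neither side throughout. On a scaling of all 9 libraries it had 11.2, 11.2 and 10.9 CPM of Cyba, close to Control 4, and 75.5, 65.0 and 63.6 CPM of Mcoln3, above Control 5. Its Osmr was 19.14, 66.3 and 66.2 CPM, above both numbers. Vldlr was low there, at 0.695, 0.397 and 0.338 CPM, and Zfp334 and Gm5995 had no count. Anpep had 0.190, 0.132 and 0 CPM, as low as in Control 4. Rec114 was at 1.33, 0.993 and 0.957 CPM, between both numbers.

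**Figure D2:**
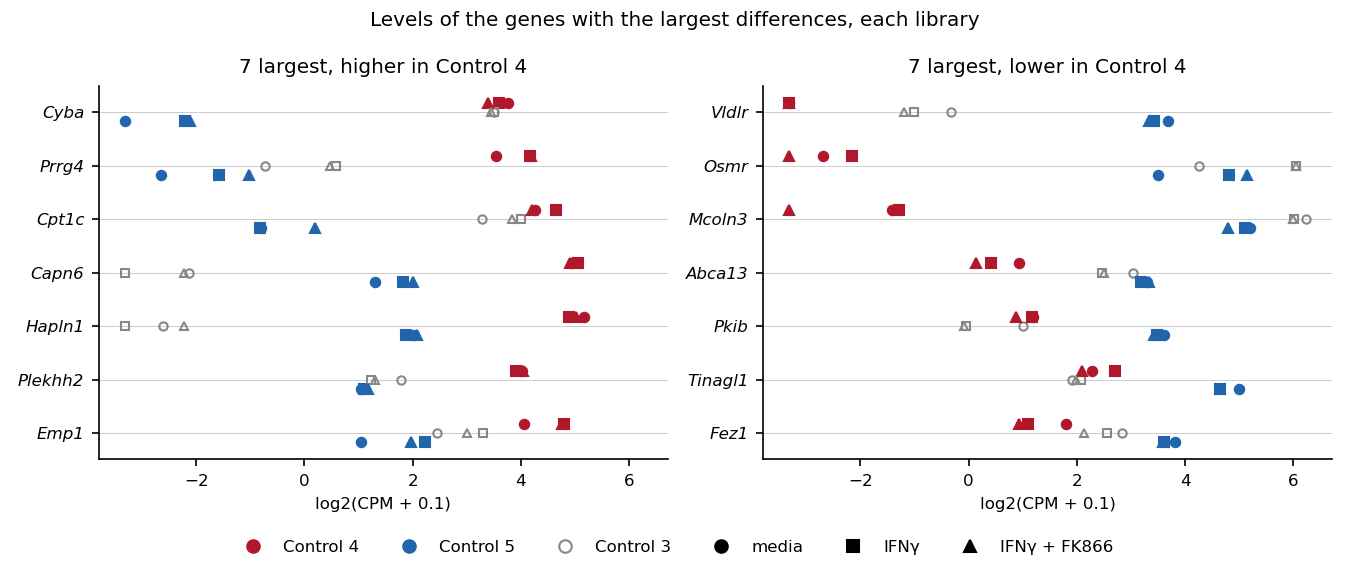
Levels of the 7 named genes with the largest called difference in each direction, as log2 of CPM plus 0.1 on the horizontal axis, 1 symbol per library (red Control 4, blue Control 5, open grey Control 3; circle media, square IFNγ, triangle IFNγ plus FK866). Red and blue symbols do not overlap in any of the 14 genes, and grey symbols fall on either side, with Cyba near Control 4 and Mcoln3 above Control 5.

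The stretches of 100 bases before the annotated starts of 4 of these genes are shown because each gene was near 0 in 1 number. They come from RefSeq on GRCm38.p6, read 5′ to 3′ on the gene's strand, with each CpG in capitals, the dinucleotide at which vertebrate DNA is methylated. Vldlr has a pair of annotated starts on the plus strand of chromosome 19, at chr19:27216384-27216483 and chr19:27216920-27217019. Osmr lies on the minus strand (chr15:6874314-6874413), Mcoln3 on the plus strand (chr3:146121691-146121790) and Cyba on the minus strand (chr8:122432941-122433040). The stretches of Mcoln3, Osmr and the inner start of Vldlr lie inside the GENCODE spans of these genes. These spans are 146117450 to 146141806, 6813577 to 6874969 and 27216484 to 27254231. Their RefSeq starts therefore differ from the outermost GENCODE starts.
Vldlr, outer start: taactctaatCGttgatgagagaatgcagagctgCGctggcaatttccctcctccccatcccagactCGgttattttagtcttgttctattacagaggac
Vldlr, inner start: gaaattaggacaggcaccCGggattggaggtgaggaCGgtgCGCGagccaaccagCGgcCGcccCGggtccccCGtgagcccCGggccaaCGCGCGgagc
Osmr: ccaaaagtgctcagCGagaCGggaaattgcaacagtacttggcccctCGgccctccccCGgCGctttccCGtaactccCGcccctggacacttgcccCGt
Mcoln3: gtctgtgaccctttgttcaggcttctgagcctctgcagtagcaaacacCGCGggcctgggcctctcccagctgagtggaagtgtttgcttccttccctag
Cyba: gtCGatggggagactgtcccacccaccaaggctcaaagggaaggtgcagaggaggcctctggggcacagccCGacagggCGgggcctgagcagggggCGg
In the whole window of 300 bases around the start, Osmr holds 22 CpGs and the inner start of Vldlr 23, numbers reached by 23.1% and 21.5% of the 32851 promoter windows in the RefSeq table. Mcoln3 holds 12 (reached by 39.6%), Cyba 9 (45.8%) and the outer start of Vldlr 8 (48.6%), and the median window holds 7. These are letters of the reference, and methylation was not measured here.

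Neighbouring genes sometimes differed together and sometimes in opposite ways. Among pairs of adjacent tested genes that were both called at 2-fold or more, 52 pairs had the same direction and 9 the opposite. With 393 genes higher and 194 lower at 2-fold, many pairs would share a direction without a link between neighbours. The share for unlinked pairs was not computed. Some of the 52 pairs overlap on the chromosome, such as Mndal with Ifi211, so they are not 52 separate cases. Mcoln2, the gene next to Mcoln3 and of the same channel family, had 26.5, 27.4 and 22.5 CPM in Control 4 and 5.29, 6.03 and 3.93 CPM in Control 5 (log2 difference 2.33), the reverse of its neighbour. The genes lie 8027 bases apart on chromosome 3, Mcoln3 from 146117450 to 146141806 and Mcoln2 from 146149833 to 146195513. Mvd, a mevalonate pathway enzyme whose gene ends 671 bases from Cyba on chromosome 8 (122433601 to 122443422), had 7.25, 6.70 and 7.35 CPM in Control 4 and 21.5, 19.7 and 18.1 CPM in Control 5, while Cyba was high in Control 4. Lifr, the leukaemia inhibitory factor receptor and the next tested gene after Osmr on chromosome 15, was higher in Control 4 by 1.05 on the log2 scale. On chromosome X, Capn6 was higher by 3.27 and the adjacent Pak3 lower, with a log2 difference of -1.50.

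Pairs that differed in the same direction formed clusters. Cxcl1, Cxcl2 and Mthfd2l on chromosome 5 were all higher in Control 4, as were Cxcl9, Art3, Cxcl10 and Cxcl11 farther along it. Cxcl10 and Cxcl11 lie inside the span of Art3, on the opposite strand. The strand setting is not given, so Art3 (mean 18.2 CPM) may hold reads of Cxcl10 (mean 875 CPM) and is not separate evidence. The adjacent Ifi207, Ifi204, Mndal, Ifi211 and Ifi203 on chromosome 1, genes of DNA-sensing PYHIN proteins, were higher by 1.57, 1.77, 1.71, 1.11 and 1.20. Ifi211 lies inside the span of Mndal on the same strand, so their reads may be shared too. Fto, an RNA demethylase gene on chromosome 8 from 91313525 to 91668439, was higher by 1.35, together with 4 unnamed transcripts annotated inside it. These transcripts lie on the same strand as Fto, so their reads may come from its transcript whether or not counting used strand. They are not separate evidence. Fez1 and Pknox2, neighbours on chromosome 9, were lower by 2.42 and 1.68 on the log2 scale in Control 4. All these neighbouring pairs were chosen after their values were seen.

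Several of the other named genes with large differences encode secreted or membrane proteins. Hapln1, the link protein that ties hyaluronan to proteoglycans, had 36.0, 29.5 and 32.5 CPM in Control 4 and 3.99, 3.57 and 4.13 CPM in Control 5 (log2 difference 3.07, standard error 0.12, edgeR adjusted p = 4.30e-15), and Control 3 had almost none. Slit2, a secreted guidance cue, had 53.1, 62.8 and 61.2 CPM against 7.97, 11.2 and 11.3 CPM. Capn6, a calpain-like protein without protease activity, had 30.6, 33.3 and 30.1 CPM against 2.38, 3.45 and 3.93 CPM. No library overlapped for these 3 genes, and Control 3 lay below both numbers for each.

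Notch1, a receptor that signals between cells in contact, had 22.4, 93.1 and 87.4 CPM in Control 4 and 4.88, 18.9 and 19.12 CPM in Control 5 (log2 difference 2.24, standard error 0.08, edgeR adjusted p = 2.49e-15). Within each treatment Control 4 was more than 4-fold higher, and in both numbers the level was higher with IFNγ than without. Emp1, Col12a1 (a collagen of fibril surfaces) and the zinc finger factor Zfp521 had no overlap between the numbers, with log2 differences of 2.80, 2.48 and 2.40. Plekhh2, Tspan2 and the phosphodiesterase Pde3a were higher by 2.94, 2.27 and 2.20. Without the treatment block the calls of Notch1 (adjusted p = 0.065) and Col12a1 (0.063) were lost.

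Among the genes lower in Control 4, Nfatc2, a calcineurin-dependent transcription factor, had 43.8, 25.7 and 25.02 CPM against 122.4, 80.4 and 72.4 CPM. Cd276, the immune ligand B7-H3, had 5.07, 3.69 and 3.49 CPM against 14.9, 14.0 and 13.0 CPM. Abca13, a lipid transporter, Pkib, an inhibitor of protein kinase A, and the matrix protein gene Tinagl1 were lower by 2.83, 2.48 and 2.42 on the log2 scale, and Syt7, a synaptotagmin of lysosome exocytosis, by 1.88. In all 6 genes every library of Control 4 lay below every library of Control 5. Hist1h3d, a histone gene, was also called (log2 difference -1.74), but its levels of 0.872, 16.7 and 0.846 CPM against 21.2, 26.9 and 1.64 CPM overlapped, and it was not called by DESeq2 (adjusted p = 0.17) or with all 9 libraries in the fit (0.12).

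Pigment genes did not shift as a group. Of 19 tested genes of pigment enzymes and melanosome proteins, 6 were higher and 7 lower in Control 4, with a median log2 difference of -0.02. This count and those of all lists below are to be read beside 19.6% higher and 15.7% lower over all tested genes. Tyr, tyrosinase, the rate-limiting enzyme of melanin synthesis, had 139, 102.5 and 99.0 CPM in Control 4 and 457, 379 and 338 CPM in Control 5 (log2 difference -1.79, standard error 0.07, edgeR adjusted p = 2.49e-15). The lowest library of Control 5 was more than 2-fold above the highest of Control 4, and Control 3, with 238.5, 197 and 175 CPM, lay between. Oca2 and Slc45a2, transporters that set melanosome pH, were lower in Control 4 too, with log2 differences of -1.45 and -0.61. Cited1 was higher by 0.66, and Kit, the stem cell factor receptor, by 0.71. The other tyrosinase family members Tyrp1 and Dct were not called.

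The 12 tested melanocyte transcription factors had a median log2 difference of -0.03, with 2 higher and 2 lower. The share called was 33.3%, near the 35.3% of all tested genes. Lef1, a Wnt effector, had 7.41, 6.58 and 5.98 CPM in Control 4 and 1.19, 1.52 and 0.720 CPM in Control 5. Etv5, an ERK-responsive factor, had 4.79, 3.57 and 2.06 CPM against 12.7, 9.31 and 5.96 CPM. Pax3 was higher by 0.25 and Id1 lower, with a log2 difference of -0.26, a call lost when the IFNγ plus FK866 pair was left out (adjusted p = 0.067).

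Genes of sterol and fatty acid synthesis were lower in Control 4 nearly throughout. Cells make cholesterol through the mevalonate pathway, whose genes are under control of the SREBP factors. Of 33 tested genes 28 were lower and none higher (edgeR, adjusted p below 0.05; at an unadjusted p below 0.05 and with DESeq2 the counts were the same), against 15.7% lower over all genes, and the median log2 difference was -0.62 against 0.03 for all. The median was -0.62, -0.66 and -0.62 within media, IFNγ and IFNγ plus FK866. Insig1, a sterol-sensing brake on SREBP, had 95.9, 65.2 and 63.3 CPM in Control 4 and 208, 159 and 159 CPM in Control 5 (log2 difference -1.24). Hmgcs1, the synthase before the rate-limiting step, had 79.2, 77.7 and 72.2 CPM against 162, 167 and 162 CPM. Msmo1, a late enzyme of the pathway, was lower with a log2 difference of -1.15 and the desaturase Scd1 with -0.87. Every library of Control 4 lay below all of Control 5 in these 4 genes. The largest fall was in Mvd (-1.47), the neighbour of Cyba.

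The promoter of Hmgcs1 is shown because it was the 1 member whose window held the letters TCACNCCAC, a form of the sterol regulatory element that SREBP binds, searched on both strands. It is read on the gene's plus strand in GRCm38.p6 (chr13:119690189-119690248, RefSeq) with the match in capitals, starting at position -137 from the annotated start.
Hmgcs1: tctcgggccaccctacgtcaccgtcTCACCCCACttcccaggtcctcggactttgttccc
A promoter was in the table for 23 of the 33 members, and 1 of them (4.35%) held the letters, against 1.39% of 9742 tested genes with a promoter. A missing match says only that these letters are not within 250 bases before or 50 after the start.

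Genes of amino acid supply and of protein folding were also lower in Control 4. ATF4 is a transcription factor that raises amino acid transport, serine synthesis and tRNA charging under stress. Of 32 tested genes of this programme 22 were lower and 3 higher, against 15.7% lower and 19.6% higher over all genes. Their median log2 difference was -0.34. Phgdh, the entry enzyme of serine synthesis, had 145, 145 and 136 CPM in Control 4 and 252, 287 and 269 CPM in Control 5. Slc7a5, the large neutral amino acid transporter, had 217.5, 195 and 172 CPM against 425.5, 331 and 326 CPM. Asns, Psat1, Mthfd2 and Slc7a1 were lower with log2 differences of -0.62, -0.75, -0.83 and -0.75. The 3 higher genes were the folate enzyme Aldh1l2 (1.18), Ddit4 (0.60) and the cystine transporter Slc7a11 (0.34). Vldlr, described above, is also a member of this list.

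Of 20 tested endoplasmic reticulum chaperones and genes of the unfolded protein response, 11 were lower and 1 higher, with a median of -0.22. Calr, calreticulin, had 1127, 1050 and 1035 CPM in Control 4 and 1724, 1710 and 1620 CPM in Control 5, and Hyou1, Pdia3 and Pdia6 were lower with log2 differences of -0.48, -0.47 and -0.46. Of 16 heat shock genes 4 were higher and 1 lower.

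Of 38 tested nuclear subunits of the respiratory chain 20 were lower in Control 4, 3 higher and 15 not called, with a median of -0.20, against 15.7% lower and 19.6% higher over all genes. Cyc1, cytochrome c1 of complex III, had 120.5, 125 and 106 CPM in Control 4 and 153, 182.5 and 177 CPM in Control 5, and Cox4i1, of complex IV, 136, 133.5 and 124 CPM against 171, 206 and 183 CPM. Of 15 mitochondrially encoded genes 10 were lower and none higher by edgeR at an adjusted p below 0.05, with 11 and 0 at an unadjusted p below 0.05 and 7 and 0 by DESeq2. The most abundant of them, mt-Co1, had 13510, 13240 and 13500 CPM against 19980, 20770 and 20580 CPM (log2 difference -0.61, standard error 0.04, edgeR adjusted p = 5.77e-11). In Control 3 it had 20090, 20130 and 19570 CPM. This is the difference in mitochondrial share given above, seen gene by gene, and whether RNA quality has a part in it was not tested.

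Genes of growth and DNA synthesis had small differences. Of 28 tested DNA replication genes 15 were lower in Control 4 and 1 higher, with a median of -0.18, against 15.7% lower and 19.6% higher over all genes. Without the treatment block 9 were lower and 0 higher. Mcm5, a subunit of the replicative helicase, had 168, 154 and 145 CPM against 247, 237 and 222 CPM, and E2f1 and Cdt1 were lower with log2 differences of -0.62 and -0.65. Of 32 cytosolic ribosomal protein genes 14 were lower and 1 higher (median -0.14), though in media alone their median was -0.01, and scaled by library totals 7 were lower. Of 24 mitosis genes 8 were higher, among them Hmmr and Nusap1, and 3 lower, with a median of -0.01, and DESeq2 called 4 and 3. Ccnd1, cyclin D1, which drives entry into the cell cycle, had 126, 90.2 and 85.7 CPM in Control 4 and 235, 174 and 155 CPM in Control 5. Cdkn1a, the p21 inhibitor, had 289, 380 and 367 CPM against 190, 230 and 211.5 CPM, the opposite direction.

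Cdkn1a belongs to the p53 targets, which were higher in Control 4. The tumour suppressor p53 induces cell cycle inhibitors, apoptosis genes and its own antagonist Mdm2. Of 23 tested targets 15 were higher and 1 lower, against 19.6% higher and 15.7% lower over all genes. Their median log2 difference was 0.35. Mdm2 had 140, 155 and 158 CPM in Control 4 and 94.0, 88.9 and 78.5 CPM in Control 5 (log2 difference 0.80). Zmat3, an RNA-binding protein, had 225, 186 and 174 CPM against 177, 106 and 93.7 CPM. The repair gene Ercc5 was higher by 0.69, Plk2 by 0.88 and Ccng1 by 0.25. Ei24 was the lower member, with a log2 difference of -0.34. Zmat3 was not called without the treatment block (adjusted p = 0.12).

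Genes downstream of growth factor signalling moved in more than 1 direction. Of 19 tested feedback genes and targets of ERK, 10 were lower in Control 4, among them Spry4 and Etv5, inducible readouts of this kinase, with log2 differences of -2.08 and -1.43. Phlda1 and Ier3 were the 2 higher members. Of 24 immediate early and AP-1 genes, 12 were higher and 3 lower (median 0.31), and without the treatment block 0 and 1, with Atf3 (adjusted p = 0.41) and Zfp36 (0.56) not called. Atf3, a stress-induced factor, had 7.90, 45.3 and 39.2 CPM against 4.52, 22.01 and 19.3 CPM, and Zfp36, which destabilises cytokine mRNAs, 15.4, 84.1 and 79.5 CPM against 11.4, 50.6 and 47.0 CPM. Egr1 went the other way, with 0.817, 0.246 and 0.740 CPM against 6.84, 3.04 and 4.65 CPM.

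**Figure D3:**
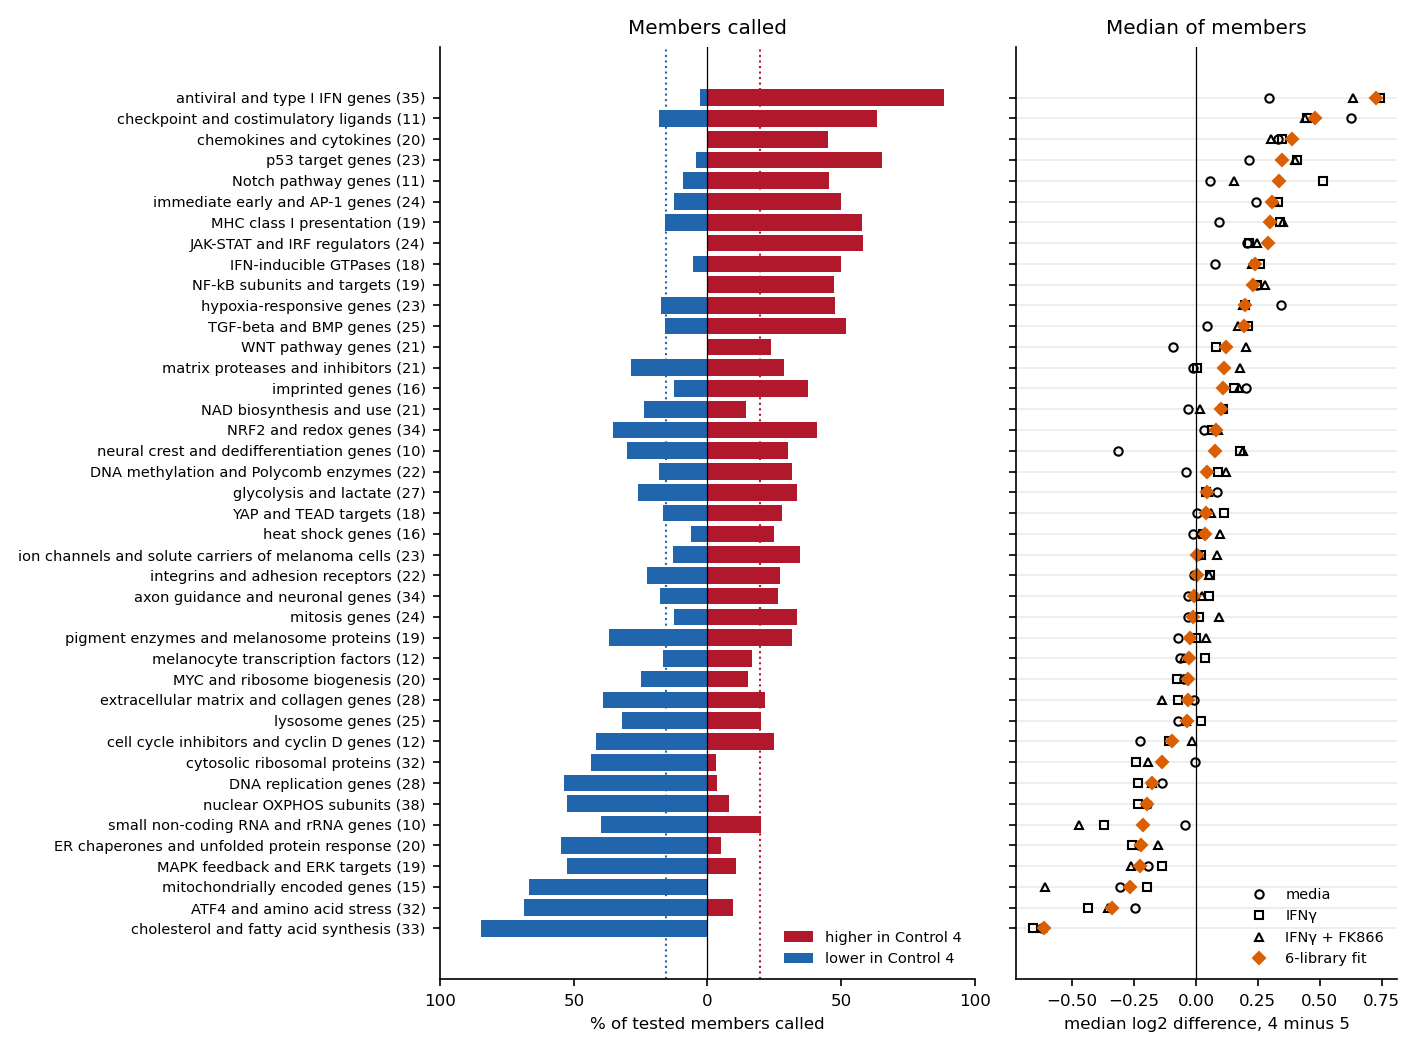
For each gene list with at least 10 tested members (number in parentheses), the left panel gives the percentage of tested members called higher (red, to the right) and lower (blue, to the left) in Control 4, with dotted lines at the 19.6% and 15.7% of all tested genes. The right panel gives the median log2 difference of the members in the fit of 6 libraries (diamond) and within each treatment (open symbols), from -0.62 for cholesterol and fatty acid synthesis to 0.73 for the antiviral genes.

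Interferon-responsive genes were higher in Control 4. Of 35 tested antiviral and type I interferon genes 31 were higher and 1, Ifit2, was lower, against 19.6% higher and 15.7% lower over all genes. Their median of 0.73 was the highest of the lists with at least 10 tested members. Within treatments the median was 0.30 (media), 0.74 (IFNγ) and 0.63 (IFNγ plus FK866). These medians use log2 CPM with a prior count of 2, which pulls differences near 0 CPM towards 0. Some members, such as Oasl2 and Zbp1 below, were near 0 CPM in media. Ifit1, which binds foreign RNA, had 4.36, 29.5 and 31.7 CPM in Control 4 and 1.19, 10.4 and 9.69 CPM in Control 5 (log2 difference 1.63, standard error 0.12, edgeR adjusted p = 5.83e-10). Mx1, a GTPase that blocks viral replication, had 2.34, 19.5 and 21.7 CPM against 1.37, 6.73 and 6.42 CPM. Oasl2 had 0.436, 42.9 and 48.6 CPM against 0.119, 19.08 and 18.9 CPM, and Zbp1, a sensor of Z-form nucleic acid, 0.109, 58.2 and 63.9 CPM against 0.119, 29.8 and 31.5 CPM. With IFNγ every Control 4 library lay above both Control 5 libraries in these 4 genes, while the media level of Zbp1 was the same near 0. Without the treatment block none of the 35 antiviral genes was called by edgeR (adjusted p from 0.25 to 0.72 for these 4), and DESeq2 with the block called 24 higher and 0 lower.

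Of 25 antiviral members with a promoter in the RefSeq table, 13 (52.0%) held the letters GAAA, any 2 bases and GAAA on either strand within the 300 bases, the core of the interferon-stimulated response element, against 3.6% of 9742 tested genes and 3.44% of all 32851 windows. The list was chosen for its response to interferon, so the share describes the list and not the difference between the numbers. Stretches of 60 bases before the start are shown for the 3 such members with the smallest p and a match in that part. Each is read on the gene's strand in GRCm38.p6, with only the first match found in capitals. The stretch of Ifit1 holds a further match, tttcagtttc, left in lower case. The stretches lie at chr19:34640760-34640819 (plus strand), chr1:173942493-173942552 and chr1:173879978-173880037 (both minus). The matches of Ifit1 and Mndal are on the opposite strand.
Ifit1: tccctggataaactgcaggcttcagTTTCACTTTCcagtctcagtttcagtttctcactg
Ifi203: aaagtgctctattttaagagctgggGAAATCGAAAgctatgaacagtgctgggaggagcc
Mndal: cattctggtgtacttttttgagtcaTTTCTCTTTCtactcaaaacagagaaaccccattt
Ifi203 had 0.272, 25.1 and 31.8 CPM in Control 4 and 0.178, 12.9 and 11.5 CPM in Control 5, and its neighbour Mndal 0.054, 10.2 and 10.7 CPM against 0, 3.51 and 2.88 CPM. Reads of these related genes, and of Ifit3 with Ifit3b, may be shared.

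Chemokines followed. Of 20 tested chemokines and cytokines 9 were higher and none lower by edgeR at an adjusted p below 0.05 (median 0.39), with 10 and 2 at an unadjusted p below 0.05 and 7 and 0 by DESeq2. Cxcl9, which draws T cells through CXCR3, had no count in either media library. Under IFNγ without and with FK866 it reached 32.5 and 38.7 CPM in Control 4, against 5.50 and 3.86 CPM in Control 5. Cxcl10, of the same receptor, had 78.5, 1778 and 1763 CPM against 25.5, 830 and 774 CPM (log2 difference 1.28, standard error 0.08, edgeR adjusted p = 1.34e-11). Cxcl1, a neutrophil chemokine, had 10.1, 7.995 and 6.77 CPM against 1.07, 1.41 and 1.24 CPM, and was not higher with IFNγ in Control 4. Cxcl2, its neighbour, had 68 counts against none, at least 20.8-fold. Ccl5 was higher by 1.74 and Csf1 by 0.50. Cxcl9, Cxcl10 and Csf1 were not called without the treatment block (adjusted p = 0.25, 0.62 and 0.69).

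Of the signalling genes behind them, 14 of 24 Janus kinase, STAT and interferon regulatory factor genes were higher in Control 4 and none lower by edgeR at an adjusted p below 0.05 (14 and 0 also at an unadjusted p below 0.05, 6 and 0 by DESeq2), with a median of 0.29. Irf7, the amplifier of type I interferon, had 0.436, 14.3 and 14.8 CPM against 0.178, 4.45 and 4.39 CPM. Stat2, a partner in the ISGF3 complex, had 12.5, 198 and 181 CPM against 9.69, 122 and 125.6 CPM. Stat3 had 96.1, 649 and 602 CPM against 52.9, 516 and 518 CPM, a log2 difference of 0.45 that was 0.25 without the media pair and was not called by DESeq2 (adjusted p = 0.10). Irf1, the first factor induced by IFNγ, had 17.2, 834 and 809 CPM against 13.9, 764 and 725 CPM (log2 difference 0.18, standard error 0.07, edgeR adjusted p = 0.0397). Its call was lost when any of the 3 treatment pairs was left out (adjusted p = 0.12, 0.13 and 0.20), with DESeq2 (0.12) and with all 9 libraries (0.16). Nampt, the target of FK866, was not called, with 206, 584 and 623.5 CPM against 215, 543 and 486 CPM (log2 difference 0.13, edgeR adjusted p = 0.152). Without the media pair it was called (0.0032).

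Of 19 tested genes of MHC class I presentation, which carries peptides to T cells, 11 were higher and 3 lower, with a median of 0.30. The class I heavy chain gene H2-D1 had 53.01, 85.0 and 79.2 CPM in Control 4 and 40.9, 52.4 and 50.0 CPM in Control 5, and the peptide loading factor Tapbp 44.2, 204 and 204 CPM against 30.3, 137 and 129 CPM. The lower members were the chaperones Calr and Pdia3 and the transporter Tap1 (log2 difference -0.25). Class I heavy chains are near copies of each other, and their counts may be split. Without the treatment block 0 class I genes were called higher and 2 lower. Of 18 tested interferon-inducible GTPases 9 were higher and Tgtp2 lower. DESeq2 called 5 higher and 1 lower, and without the block edgeR called none, with adjusted p = 0.45 for Gbp5 and 0.62 for Gbp3. Gbp5 had 0.054, 37.7 and 43.2 CPM against 0, 10.1 and 11.4 CPM, and Gbp3 1.74, 129 and 132.5 CPM against 1.37, 56.8 and 54.2 CPM. Igtp and Irgm1 were higher by 0.26 and 0.19.

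Of 11 tested checkpoint and costimulatory ligands 7 were higher and 2 lower in Control 4. Cd274, PD-L1, had 10.3, 293 and 306 CPM against 5.12, 215 and 217 CPM (log2 difference 0.55, standard error 0.08, edgeR adjusted p = 9.78e-06), and was not called without the treatment block (adjusted p = 0.85). Lgals9, the TIM-3 ligand galectin-9, had 37.5, 50.4 and 50.3 CPM against 21.9, 25.7 and 23.8 CPM. The lower members were Cd276, given above, and Nectin2.

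The difference in response itself was tested as an interaction of number with IFNγ, over all 9 libraries and with both IFNγ-treated libraries of a number together. Of 15237 genes tested 23 (0.151%) were called, 15 with a higher and 8 with a lower log2 response in Control 4 than in Control 5, and 1234 had an unadjusted p below 0.05. Fn1, fibronectin, a matrix protein bound by integrins, had 207, 753 and 726 CPM in Control 4 and 126, 189 and 167 CPM in Control 5. Its log2 rise over the media library was 1.84 and 1.78 (IFNγ, IFNγ plus FK866) in Control 4, 0.59 and 0.40 in Control 5 and 1.94 and 1.92 in Control 3, an interaction of 1.31 (standard error 0.11, edgeR adjusted p = 2.52e-07). B2m, the light chain of every class I molecule, had 252, 635 and 670 CPM in Control 4 and 278, 384 and 329 CPM in Control 5. Its rise was 1.31 and 1.38 in Control 4, 0.48 and 0.24 in Control 5 and 1.34 and 1.39 in Control 3 (interaction 0.98, standard error 0.12, edgeR adjusted p = 9.45e-05). In media the levels of B2m lay close together, and with IFNγ those of both numbers were apart. Averaged over treatments, B2m was higher by 0.54 (edgeR adjusted p = 0.00133), a call lost with DESeq2 (0.27) and without the IFNγ pair (0.064) or the IFNγ plus FK866 pair (0.051).

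Rnf213, a ubiquitin ligase that acts on intracellular microbes, rose by 2.31 and 2.27 in Control 4 and by 1.52 and 1.499 in Control 5 (interaction 0.78). Parp12, an antiviral mono-ADP-ribosyltransferase, rose by 3.18 and 3.20 against 2.42 and 2.39 (interaction 0.78). Ifitm3, which blocks viral entry, and Erap1, which trims peptides for class I, had interactions of 1.10 and 0.81, and Tgfb2, a TGF-beta ligand, rose by 1.09 and 1.07 in Control 4 against -0.23 and -0.06 in Control 5. In the opposite direction Csf1, the macrophage growth factor, rose by 1.403 and 1.32 in Control 4 and by 2.01 in both treatments of Control 5 (interaction -0.65), and Stat3 by 2.73 and 2.61 against 3.30 and 3.29 (-0.62). Both started lower in the media library of Control 5. The interaction was called for 1 of 35 antiviral genes (Parp12) and 2 of 19 class I genes (B2m and Erap1). The antiviral genes had a median response of 3.64 and 3.83 in Control 4 and 2.97 and 2.90 in Control 5, while the median of their interactions was 0.23. The response medians were taken for each number apart, so their gap is not the median difference of the members. Some members were near 0 CPM in media, where a log2 response also depends on the prior count of 2 added before the logarithm. The response of each number rests on 1 media library, so a deviation of that library enters both IFNγ responses. With the 6 libraries of both numbers alone, 179 genes were called, and without the filter on low counts 74.

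**Figure D4:**
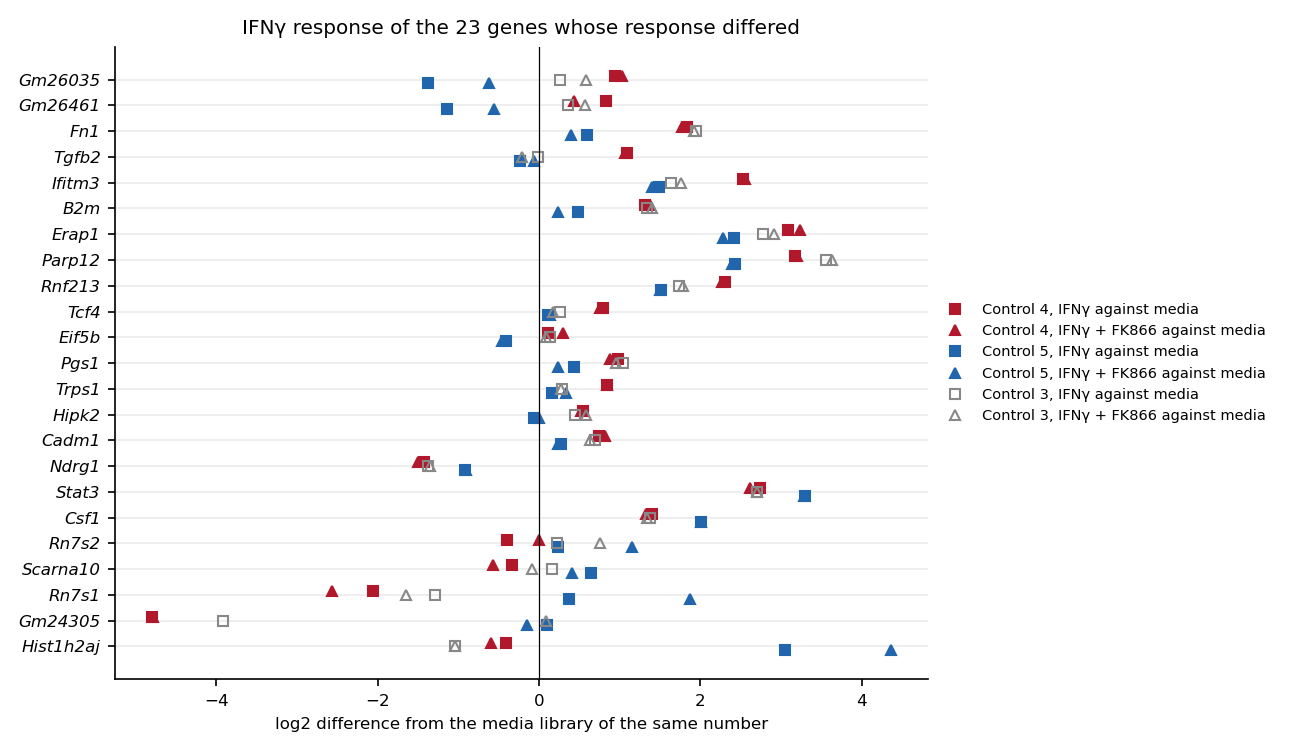
For the 23 genes with a called interaction, the log2 difference between an IFNγ-treated library and the media library of the same number is on the horizontal axis (red Control 4, blue Control 5, open grey Control 3; square IFNγ, triangle IFNγ plus FK866). Fn1 and B2m of Control 3 lie at the Control 4 values (1.94 and 1.34 with IFNγ). Among the genes at the bottom, Hist1h2aj (3.05 and 4.36) and Rn7s1 (0.37 and 1.87) spread between the libraries of Control 5. Gm24305 (-3.92 and 0.08) spreads between those of Control 3. In the other numbers the values of these genes lie closer together.

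Several further groups had members on both sides. Over all tested genes 19.6% were higher and 15.7% lower. Of 34 tested NRF2 and redox genes 14 were higher and 12 lower in Control 4. Nqo1, a quinone reductase, had 12.0, 9.90 and 12.0 CPM against 4.52, 4.86 and 4.65 CPM, whereas the ferritin heavy chain Fth1 had 928, 914 and 824 CPM against 1634, 1775 and 1611 CPM. Hypoxia-responsive genes were higher for 11 of 23 and lower for 4, and DESeq2 called 8 and 1. Egln3, an oxygen-sensing prolyl hydroxylase, had 18.3, 12.0 and 12.6 CPM against 5.41, 2.40 and 2.29 CPM. In glycolysis, Pdk1, which holds pyruvate out of mitochondria, had 48.0, 38.9 and 39.4 CPM against 25.2, 20.1 and 17.4 CPM, with 9 of 27 members higher and 7 lower.

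Of 28 tested matrix genes 11 were lower in Control 4, among them Sparc (log2 difference -0.64) and Col4a2 (-0.67), and 6 were higher. Fn1 (1.63) had the largest difference of the list, at 0.72 in media against 1.996 and 2.12 under IFNγ without and with FK866. Of 25 TGF-beta and BMP genes 13 were higher and 4 lower. The pathway inhibitors Smad7 and Smad6 and the repressor Skil were each higher, by 0.49, 0.49 and 0.58. Of 16 imprinted genes, expressed from 1 parental copy, 6 were higher and 2 lower. Mest had 66.7, 71.8 and 70.9 CPM against 179, 150 and 150.5 CPM, and Peg10 598, 561 and 572 CPM against 385, 316 and 304 CPM. A list of 10 abundant non-coding and ribosomal RNA genes, short and long, had 4 lower, with Rn7sk at 9349, 9288 and 8521 CPM against 11970, 13440 and 13190 CPM, and 2 higher, with Neat1, a long nuclear scaffold RNA, at 137, 189 and 198 CPM against 68.1, 91.1 and 118.5 CPM. Of the 19 markers of other cell types 4 were tested, and Cd68 (1.48) and Pdgfra (1.85) were called, both higher. Pdgfra had 7.25, 5.66 and 7.40 CPM against 2.62, 1.58 and 1.44 CPM.

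Calls were uneven over chromosomes. On chromosome 10, 35.0% of 728 tested genes were higher in Control 4 and 4.53% lower, on chromosome 11 33.7% of 1103 and 6.80%, and on chromosome 2 34.5% of 1095 and 12.5%, against 19.6% and 15.7% overall. Chromosome 16 had 28.1% higher and 10.05% lower. The median log2 differences of these 4 chromosomes were 0.18, 0.14, 0.15 and 0.11. Within media, IFNγ and IFNγ plus FK866, the median of chromosome 10 was 0.16, 0.17 and 0.19 and that of chromosome 11 was 0.11, 0.15 and 0.17. Chromosome 8 went the other way, with 14.4% higher and 27.4% lower (median -0.08), as did chromosome 13, with 10.0% higher and 25.3% lower (median -0.11). Scaling by library totals, which shifts all genes alike, gave 0.25 and 0.21 for chromosomes 10 and 11 and -0.01 and -0.04 for chromosomes 8 and 13, against 0.09 for all genes.

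**Figure D5:**
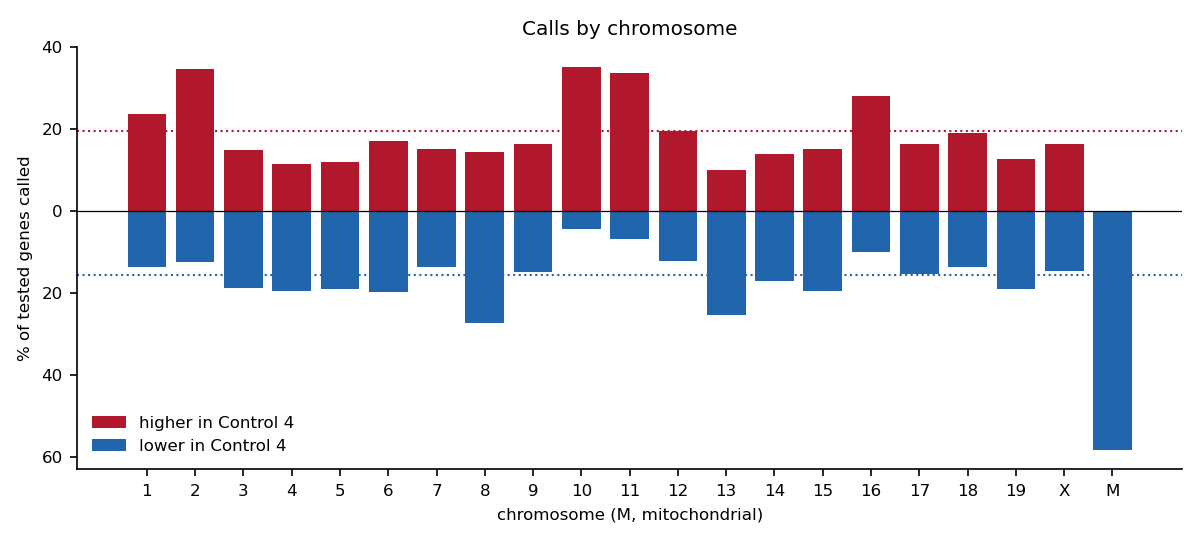
For each chromosome, bars give the percentage of its tested genes called higher (red, upward) and lower (blue, downward) in Control 4, with dotted lines at 19.6% and 15.7%, the shares over all tested genes. Chromosomes 2, 10, 11 and 16 have the highest percentages of genes higher, and chromosomes 8 and 13 and the mitochondrial genome the highest percentages lower.

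The runs of 25 consecutive tested genes with the highest and lowest medians differed in how many of their genes were called. The highest median, 0.49, was that of a run on chromosome 4 from Vwa1 to Plekhn1, in which 9 genes were higher and 1 lower, with a median of 0.16 in media. The run from Chd3 to Neurl4 on chromosome 11 (69343273 to 69913820) had 19 genes higher and none lower, with a median of 0.48, and values of 0.45, 0.59 and 0.48 within media, IFNγ and IFNγ plus FK866. On chromosome 2 the run from Tnks1bp1 to Harbi1 (85048022 to 91721545) had 21 higher and none lower (median 0.44), and that from Gm10801 to Prrg4 (98662237 to 104849876) 16 higher and none lower (0.42). A run on chromosome 18 had 11 higher and 1 lower (0.47), and 1 on chromosome 10 had 13 higher and none lower (0.41). On chromosome 8 the run from Kars to Taf1c (111993443 to 119605222) had 19 lower and none higher, with a median of -0.59, and the run that holds Cyba and Mvd (120536892 to 122611463) 16 lower and 3 higher. A run on chromosome 5 from Zfp655 to Ubl3 had 15 lower and none higher (-0.44). The run with the lowest median, -0.59 on chromosome 13, holds histone genes from Hist1h2bh to Hist1h4a, most of whose transcripts end without a poly(A) tail. These runs were picked as the highest and lowest of all and carry no test. Copy number was not measured here, and levels of RNA alone do not give it.

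The most abundant genes called differed modestly. Actb, beta-actin, had 5916, 6263 and 5799 CPM in Control 4 and 7554, 7065 and 7097 CPM in Control 5 (log2 difference -0.27), and the translation elongation factor Eef1a1 was lower with a log2 difference of -0.19. Vim, vimentin, had 1607, 1604 and 1512 CPM against 1339, 1373 and 1301 CPM, and Ldha, lactate dehydrogenase, 1697, 1561 and 1468 CPM against 1423, 1297 and 1237 CPM. The libraries did not overlap for these 4. Gpnmb, a melanosomal glycoprotein, Eno1 and Malat1 were called higher by 0.13, 0.15 and 0.16, with overlapping libraries, and none of the 3 was called by DESeq2 (adjusted p = 0.17, 0.095 and 0.16).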

How the data were processed

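RNA of 9 B16F10 libraries was sequenced, and the authors deposited 1 table of raw counts per gene for the series. The submitters' processing notes name cutadapt 1.16, the aligner STAR 2.7.6a, the counter featureCounts 1.6.3, DESeq2 1.30.1 and the builds mm10 and GRCm38. For strand setting, annotation release and duplicate reads, the answer is not given in the sources used here.

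Of 55487 genes, 14682 passed edgeR's filter on low counts over the 6 libraries and held 99.8% to 99.9% of each library's counts. Names came from the gene name table (55141 matched) and positions from GENCODE M21 on GRCm38 (55227 matched). The difference was fitted with TMM scaling and edgeR 4.0.16 (R 4.3.3) as number plus treatment block, by the quasi-likelihood test with Benjamini-Hochberg adjustment at 0.05. CPM values use TMM unless stated. The interaction used all 9 libraries. DESeq2 1.42.0, limma-voom (limma 3.58.1), other scalings and left-out libraries were alternatives. The scripts were tested on simulated data. Counting intervals (95%) and the floor of 3 counts cover counting error only.

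Named genes were the 14 largest called differences per direction with a mean of at least 5 CPM and the same sign in every treatment (predicted genes and pseudogenes left out), the 6 most abundant called genes per direction, up to 4 members with the smallest p per list, the 5 interaction genes with the smallest p per direction, and Nampt, Irf1, Cd274, Cxcl10 and B2m. Other list members may be named with their values. Some genes that these rules select are not reported here. The comparison, the 44 gene lists and these rules were chosen with earlier results of these data known.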

Additional observations from a re-analysis of the deposited data

Results flagged for a closer look

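The response to IFNγ differed between Control 4 and Control 5 by the interaction test (edgeR, adjusted p below 0.05) for the genes given here, the 5 with the smallest p in each direction, as log2 response in Control 4 minus that in Control 5. Higher in Control 4 were the responses of Fn1 (1.31), B2m (0.98), Rnf213 (0.78), Parp12 (0.78) and the small RNA gene Gm26461 (1.48). Lower were those of Csf1 (-0.65), the small Cajal body RNA Scarna10 (-0.98), the 7SL RNA genes Rn7s1 (-3.53) and Rn7s2 (-0.91), and the small RNA gene Gm24305 (-4.96). Gm24305 had a log2 difference from media of -3.92 with IFNγ and 0.08 with IFNγ plus FK866 in Control 3, so its level varied between libraries of 1 number. The 7SL genes are near-identical copies whose counts may be shared. Every response rests on 1 media library per number.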

How the results depend on the processing

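Against 2872 genes higher and 2312 lower in Control 4, DESeq2 called 1576 higher. Without the IFNγ pair 1734 and 1427 genes were called, and without the IFNγ plus FK866 pair 1866 higher. Leaving out 1 library in turn gave 1752 to 2957 higher and 1417 to 2461 lower genes. At 2-fold or more (393 and 194), DESeq2 called 258 higher. The fit without the replicate block of treatment called 981 and 948 genes, 224 and 123 at 2-fold or more. All 1929 were also called with the block, and 59 of 198 named genes lost their call. The 23 interaction calls became 74 without the filter on low counts, 179 with the 6 libraries alone and 35 to 124 when 1 library was left out. The interaction without the IFNγ libraries has no residual degrees of freedom among the 6 libraries and was not run as a test. The sign reversed for 3 genes that were not called. Tex14 (-0.24) was 0.055 without the IFNγ plus FK866 pair, and -0.58 to 0.077 with 1 library left out. Xlr3a (-0.17) was 0.0011 without that pair, and -0.27 to 0.023. Col1a2 (0.10) was -0.38 without the media pair, and -0.37 to 0.40. The cause of these changes was not tested. The limits are 1 library per number and treatment, 2 residual degrees of freedom, and counts whose strand setting is not given, so overlapping genes cannot be told apart.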

Other observations

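The lists not described above are given by their counts, to be read beside 19.6% higher and 15.7% lower over all tested genes. Of 22 integrins and adhesion receptors, of which 50.0% were called against 35.3% of all genes, 6 were higher in Control 4, with Itgb3 at a log2 difference of 1.08, and 5 were lower, with Alcam at -0.71 and Itgb1 at -0.45. Of 34 axon guidance and neuronal genes, 9 were higher and 6 lower, among the latter the ephrin receptors Ephb2 (-1.71) and Epha4 (-1.03). Of 21 matrix proteases and inhibitors, 6 were higher, with the protease inhibitor gene Serpine2 at 2.09, and 6 lower, with Timp2 at -0.87. Of 10 neural crest genes, 3 were higher, with the nerve growth factor receptor Ngfr at 2.09, and 3 lower, with Axl at -0.48. The Notch list had 5 of 11 higher, with Lfng, a modifier of Notch receptors, at 1.44, and 1 lower. The WNT list had 5 of 21 higher and 0 lower by edgeR, with 5 and 1 at an unadjusted p below 0.05 and 3 and 0 by DESeq2. The NF-kB list had 9 of 19 higher and 0 lower by edgeR, with 10 and 0 at an unadjusted p below 0.05 and 5 and 0 by DESeq2, among them Nfkbiz at 0.68.

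Of 18 YAP targets 5 were higher and 3 lower, of 12 cell cycle inhibitors and cyclin D genes 3 and 5, of 20 ribosome biogenesis genes 3 and 5, and of 25 lysosome genes 5 and 8. Of 22 DNA methylation and Polycomb genes 7 were higher, with Cbx7 at 0.68, and 4 lower, with Uhrf1 at -0.51. Of 23 ion channels and solute carriers 8 were higher and 3 lower. Of 21 genes of NAD synthesis and use 38.1% were called, near the 35.3% of all genes, and DESeq2 called 1 higher and 3 lower. By edgeR 3 were higher, with Naprt, which makes NAD from nicotinic acid, at 1.06, and 5 lower, with the NAD-consuming enzyme Cd38 at -2.12 and Nnmt, which methylates nicotinamide, at -0.82. Of 4 tested germline genes none was called by edgeR, 1 had an unadjusted p below 0.05, and DESeq2 called 0.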
